A study of Mus musculus with 11 samples.

Results

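The genes described here are Dppa2, Dppa3, Dppa4, Dppa5a, Utf1, L1td1, Tdh, Fbxo15, Tcl1 and Trim71, 10 genes chosen because their transcripts are known to be largely restricted to pluripotent stem cells, early embryos and germ cells. Every probe set that the array's annotation assigns to 1 of these symbols was taken. That gave 13 of the 45101 probe sets and 9 of the 10 genes, out of 18193 genes in all. The table names no probe set for Tdh, threonine dehydrogenase, which was therefore not analysed here.

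Total RNA was hybridized to Affymetrix mouse genome arrays, 1 array per sample and 11 in all. ViPSC, which are ventricular myocytes reprogrammed to induced pluripotent stem cells, had 3 arrays, as had TiPSC, reprogrammed from fibroblasts of the tail tip, and mouse embryonic stem cells (ESC). The source cells, ventricular cardiomyocytes (VM) and tail tip fibroblasts (TTF), came from pups on postnatal day 1 and had 1 array each, so nothing set against them has a replicate check. The labels give the same genetic background, mixed C57/Bl and BlackSwiss, for all 5 kinds of cells. The pluripotent cells were grown with LIF on irradiated embryonic fibroblast feeders, which were depleted by plating before RNA was taken. How the reprogramming factors were delivered, and how many lines or clones the 3 arrays of a group represent, is not given in the sources used here. The p-values therefore measure the spread between these arrays, which may be technical.

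Pluripotent cells hold their state through a circuit around the transcription factors Oct4 (Pou5f1), Sox2 and Nanog, and the genes described here lie downstream of that circuit or beside it. Dppa2 and Dppa4 are DNA-binding partners that keep developmental promoters open to activation. Dppa3, also called Stella, protects the DNA methylation pattern of the early embryo. Dppa5a and L1td1 bind RNA, Utf1 is a chromatin-bound cofactor, and Fbxo15 is the substrate adaptor of a ubiquitin ligase. Tcl1 is a coactivator of the Akt kinases, and Trim71 is an RNA-binding ubiquitin ligase whose transcript is a target of the let-7 microRNAs.

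The values are log2 RMA expression values, a scale with no zero that ran from 2.43 to 15.14 over the 11 arrays, with array medians of 4.67 to 4.78. RMA compresses differences near background, so the differences below between pluripotent and source cells are differences on this scale and not copy numbers. Levels of different probe sets are not compared with each other. The 6 pluripotency markers averaged 11.68 to 12.09 on the 9 pluripotent arrays, against 3.88 in VM and 4.01 in TTF. The 10 heart muscle markers averaged 4.32 to 4.47 on the pluripotent arrays, against 12.99 in VM and 4.02 in TTF, and the 11 fibroblast and feeder markers 6.28 to 7.13, against 9.24 in VM and 12.62 in TTF. The VM array also held endothelial transcripts (mean of 8 markers 10.21, against 4.0 in TTF). On the pluripotent arrays that mean was 5.26 to 5.31 in ViPSC, 4.78 to 4.81 in TiPSC and 4.92 to 5.13 in ESC. Of the 8 markers 2 rose in ViPSC relative to TiPSC in limma, Pecam1 (1.33 ± 0.21, adjusted p = 0.011), which pluripotent cells also express, and Cldn5 (1.03 ± 0.13, adjusted p = 0.00424). Cldn5 also rose in ViPSC relative to ESC (1.08 ± 0.13, adjusted p = 0.00909). The part of these markers in the differences given below was not tested. The ESC arrays were less alike than those of the other groups. Across genes, which are not independent replicates, ESC 1 correlated at 0.988 with ESC 2 and at 0.984 with ESC 3, but at 0.993 to 0.994 with every induced array. Results that turn on ESC 1 are given below with and without it.

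All 9 genes were much higher in both kinds of induced cells than in the cells they came from. In all 3 ViPSC arrays 9 of the 9 exceeded VM by 2 log2 units or more, as 6.44% of all genes did, and in all 3 TiPSC arrays 9 of the 9 exceeded TTF by as much, as 4.51% did. At a threshold of 4 log2 units 8 passed in ViPSC (1.06% of all genes) and 9 in TiPSC (0.956%). At a threshold of 6 log2 units, 7 of the 9 passed in each comparison (0.275% and 0.291% of all genes). The median difference of the 9 genes was 6.58 between ViPSC and VM, where that of all genes was 0.042, and 7.34 between TiPSC and TTF, where it was 0.07. The genes were picked as stem cell genes, so these counts describe how far the known pattern held on these arrays. In bulk RNA, fewer cells that express a gene and less of its RNA per cell cannot be told apart.

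**Figure D1:**
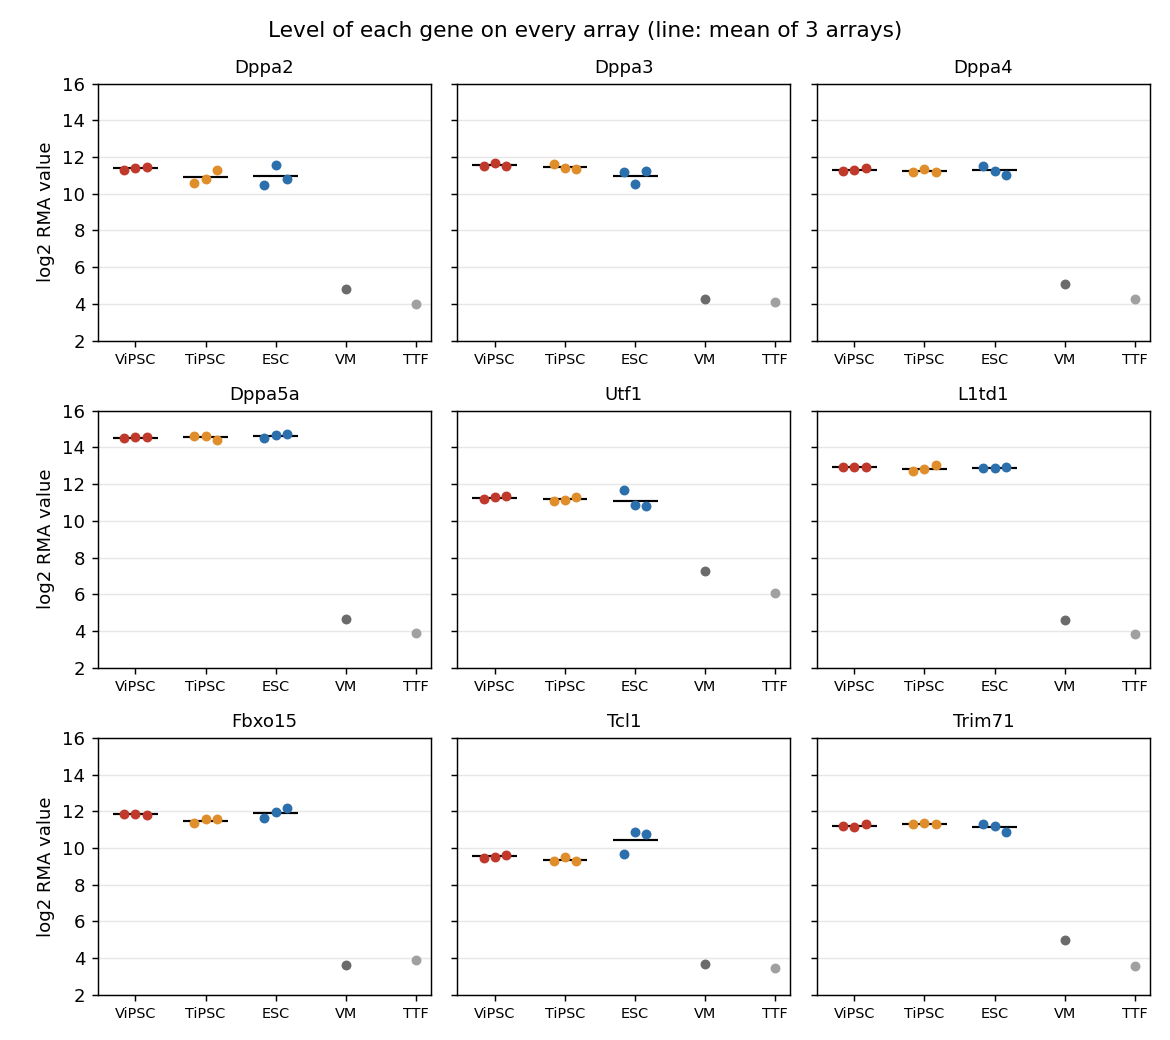
Log2 RMA value (y axis) of the 9 genes on all 11 arrays, by group (x axis), with 1 point per array and a line at the mean of 3 arrays. The pluripotent arrays sit between 9.27 (Tcl1 on TiPSC 3) and 14.72 (Dppa5a on ESC 3), and for each gene they lie above both source arrays.

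A stricter measure sets the lowest of the 9 pluripotent arrays against the higher of the 2 source arrays. This gap was at least 2 log2 units for 9 of 9 genes (2.27% of all genes), at least 4 for 8 (0.495%) and at least 6 for 4 (0.148%). Over all 18193 genes the median gap was −0.34, and 24.1% of genes had a gap above 0. Of the 9 source values 5 in VM and 8 in TTF lay under that array's median over all probe sets (4.78 in VM, 4.68 in TTF). The size of a gap therefore depends on the floor of the scale and on the brightness of the probe set, and the order of the genes by gap is not read as an order of the genes. Dppa5a had a gap of 9.76, with 14.42 on its lowest pluripotent array (TiPSC 3) and 4.66 in VM. The gap was 8.08 for L1td1, 7.45 for Fbxo15, 6.27 for Dppa3, 5.97 for Dppa4 and 5.6 for Tcl1. For Dppa2 it was 5.63 on the probe set kept and 7.39 on the other, and for Trim71 it was 5.87 and 6.76. Utf1 had 3.51 on the probe set kept, 1.93 on the second and −0.88 on the third. The non-member genes with the widest gaps were Pou5f1 (8.79), Nanog (8.37), the Nodal co-receptor gene Tdgf1 (8.21), Sox2 (7.69) and Mageb16 (7.50), a member of the melanoma antigen family. On the probe sets kept, the higher source array was VM for 8 of the 9 genes and TTF for Fbxo15 (3.89, against 3.62 in VM). That order turned on another probe set of Dppa2, Trim71 and Utf1, and there are no replicates to test it.

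**Figure D2:**
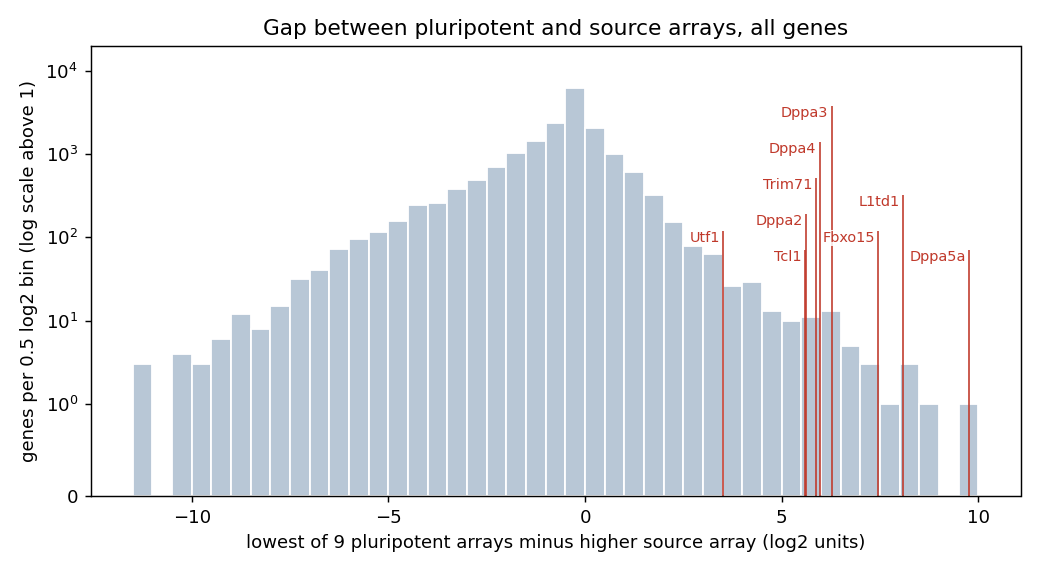
Histogram of the gap between the lowest of 9 pluripotent arrays and the higher source array (x axis, log2 units, bins of 0.5) over 18193 genes (y axis, log scale above 1), with vertical lines at the 9 genes. Line height carries no value. Each gene is drawn at its kept probe set. Of the 9 lines 8 stand at 5.6 or more, and Utf1 stands at 3.51.

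Dppa2 and Dppa4, which lie next to each other on chromosome 16 with no annotated gene between them, were both high in all pluripotent groups. Dppa4 was at 11.22, 11.31 and 11.40 on the ViPSC arrays, at 11.20, 11.35 and 11.21 on the TiPSC arrays and at 11.50, 11.26 and 11.04 on the ESC arrays, against 5.07 in VM and 4.29 in TTF. The arrays of the 3 pluripotent groups overlapped throughout. Its group means, 11.31 ± 0.09, 11.25 ± 0.08 and 11.27 ± 0.23 (SD, n = 3), lay within 0.06 log2 units of each other. The 95% intervals of its 3 differences lay within −0.28 to 0.32.

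Dppa2 varied more than its neighbour. On the probe set with the higher mean, it was at 11.32, 11.40 and 11.46 in ViPSC, at 10.61, 10.79 and 11.31 in TiPSC and at 10.45, 11.58 and 10.80 in ESC, against 4.81 in VM and 4.01 in TTF. All 3 ViPSC arrays were above all 3 TiPSC arrays, while the ESC arrays spanned both. The ViPSC minus TiPSC difference was 0.49 ± 0.27 log2 units (SE, n = 3 each), with a 95% interval of −0.11 to 1.09 and an adjusted p of 0.348 in limma. Its second probe set gave 11.33, 11.32 and 11.35 in ViPSC, 10.64, 10.79 and 11.24 in TiPSC and 11.41, 11.64 and 11.42 in ESC, against 3.01 in VM and 3.25 in TTF. The first probe set placed ESC 1 and ESC 3 under all ViPSC arrays, while the second placed every ESC array above them. On the second probe set TiPSC lay under ESC on all arrays, by −0.60 ± 0.14 (95% interval −0.92 to −0.28). With every probe set tested the adjusted p was 0.117. On the first probe set that difference was −0.04 ± 0.27. ViPSC minus ESC was 0.45 ± 0.27 on the first probe set and −0.16 ± 0.14 on the second, so the order of ViPSC and ESC for Dppa2 rests on the probe set used.

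Dppa3, the maternal factor of the oocyte, was at 11.49, 11.65 and 11.50 on the ViPSC arrays, at 11.60, 11.41 and 11.33 on the TiPSC arrays and at 11.20, 10.54 and 11.24 on the ESC arrays, against 4.27 in VM and 4.11 in TTF. Every induced array was above every ESC array, with ESC 2 the lowest. The difference was 0.56 ± 0.17 for ViPSC minus ESC (95% interval 0.16 to 0.95, adjusted p = 0.140) and 0.45 ± 0.17 for TiPSC minus ESC (0.06 to 0.85, adjusted p = 0.218). Neither passed in limma, and both are set against the same 3 ESC arrays. Without ESC 2 they were 0.33 and 0.23. Without ESC 1 they were 0.66, which passed (adjusted p = 0.0455), and 0.56 (adjusted p = 0.0727). In that fit 13.8% and 16.7% of all genes passed. Between the induced groups Dppa3 differed by 0.10 ± 0.17 (−0.29 to 0.49).

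Dppa5a, the KH-domain RNA-binding protein once named Esg1, varied least across the 9 pluripotent arrays. It was at 14.52, 14.56 and 14.55 in ViPSC, at 14.60, 14.63 and 14.42 in TiPSC and at 14.52, 14.70 and 14.72 in ESC, against 4.66 in VM and 3.87 in TTF. Its 9 pluripotent arrays spanned 0.30 log2 units, and the groups overlapped. The 3 differences between pluripotent groups had 95% intervals within −0.30 to 0.20. These values lie near the top of the scale, where array signals can saturate, and no saturation calls were used here.

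L1td1, derived from a LINE-1 retrotransposon protein, was steady too. Its values were 12.92, 12.94 and 12.94 in ViPSC, 12.70, 12.82 and 13.04 in TiPSC and 12.89, 12.90 and 12.92 in ESC, against 4.62 in VM and 3.83 in TTF. The TiPSC arrays spread on both sides of the other groups. Its differences were 0.07 ± 0.09 for ViPSC minus TiPSC, 0.03 ± 0.09 for ViPSC minus ESC and −0.05 ± 0.09 for TiPSC minus ESC, with 95% intervals within −0.26 to 0.29.

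Utf1, a cofactor whose gene is a known direct target of Oct4 and Sox2, has 3 probe sets that differ widely. Its brightest was at 11.21, 11.28 and 11.33 in ViPSC, at 11.09, 11.15 and 11.28 in TiPSC and at 11.66, 10.87 and 10.80 in ESC, against 7.29 in VM and 6.09 in TTF. The groups overlapped, and ESC 1 was the highest array while ESC 2 and ESC 3 were the lowest. Its differences were 0.10 ± 0.20, 0.16 ± 0.20 and 0.06 ± 0.20 for ViPSC minus TiPSC, ViPSC minus ESC and TiPSC minus ESC, with 95% intervals within −0.38 to 0.61. Without ESC 1 it passed against ESC, at 0.44 for ViPSC (adjusted p = 0.0138) and 0.33 for TiPSC (adjusted p = 0.0366). In that fit 13.8% and 16.7% of all genes passed. The second Utf1 probe set was at 6.64, 6.67 and 6.72 in ViPSC, at 6.51, 6.46 and 6.77 in TiPSC and at 6.93, 6.66 and 6.35 in ESC, against 4.03 in VM and 4.42 in TTF. It gave the source arrays in the opposite order. The third had 3.30 to 3.60 on all 9 pluripotent arrays, against 4.17 in VM and 3.46 in TTF, and so did not separate stem cells from source cells. Whether the brightest probe set measures Utf1 RNA in the source cells or another transcript was not tested.

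**Figure D3:**
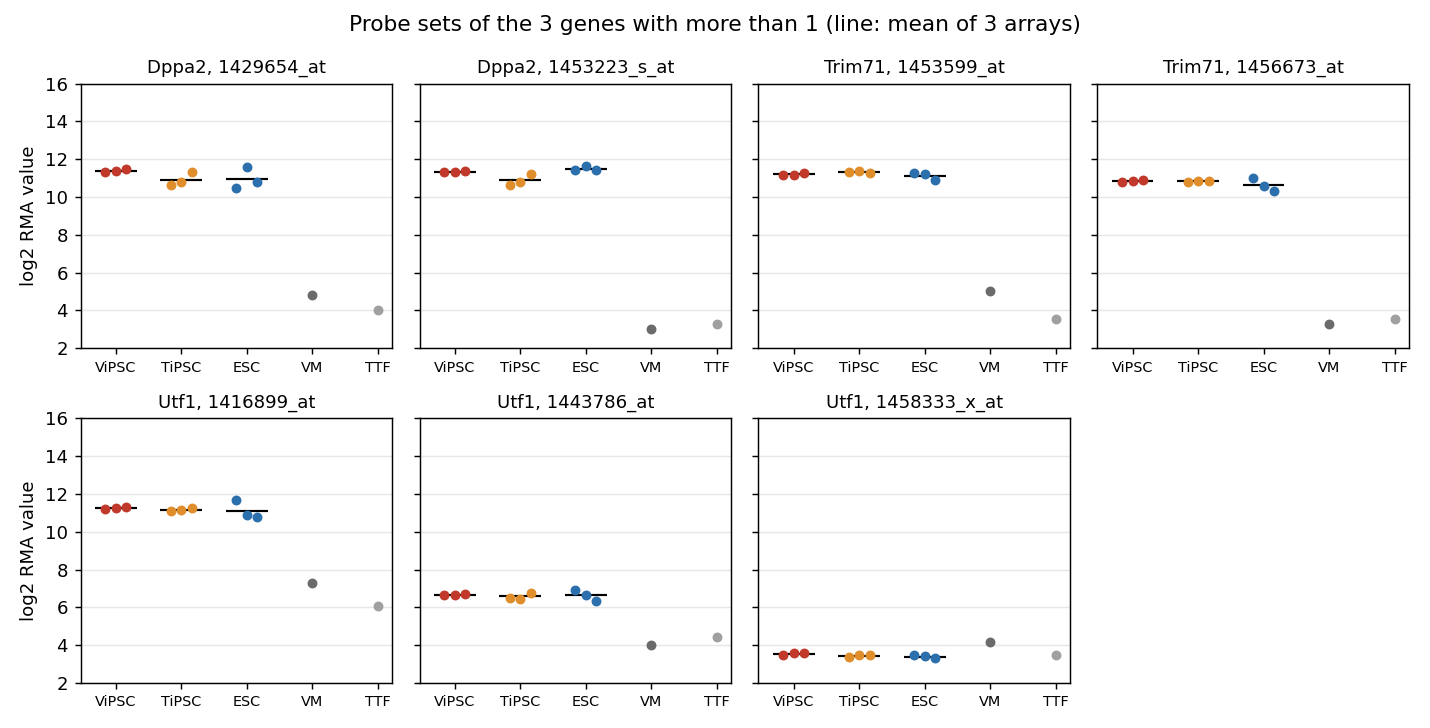
Log2 RMA value (y axis) on all 11 arrays by group (x axis) for the 7 probe sets of Dppa2, Trim71 and Utf1, with a line at the mean of 3 arrays. The ESC arrays of Dppa2 read 10.45, 11.58 and 10.80 on one probe set and 11.41, 11.64 and 11.42 on the other, and the third Utf1 probe set reads 3.30 to 3.60 on the pluripotent arrays, against 4.17 in VM.

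Fbxo15, another known Oct4 and Sox2 target and a reporter gene in early reprogramming work, was at 11.86, 11.85 and 11.81 in ViPSC, at 11.34, 11.56 and 11.57 in TiPSC and at 11.63, 11.99 and 12.18 in ESC, against 3.62 in VM and 3.89 in TTF. TiPSC was the lowest group, with no overlap with either of the others, and ESC spread on both sides of ViPSC. ViPSC minus TiPSC was 0.35 ± 0.13 (95% interval 0.05 to 0.65, adjusted p = 0.173) and TiPSC minus ESC was −0.44 ± 0.13 (−0.75 to −0.14, adjusted p = 0.150). Neither passed in limma. The first passed when only the 6 compared arrays were fitted (adjusted p = 0.0331), a fit in which 14.4% of all genes passed. Without ESC 1 both passed, at 0.35 (adjusted p = 0.0428) and −0.59 (adjusted p = 0.00532), in a fit where 11% and 16.7% of all genes did. The fibroblast and feeder markers were highest on TiPSC 1 (mean 7.13), the array with the lowest Fbxo15, and 6.51 to 7.13 on the TiPSC arrays in all, against 6.37 to 6.51 on the ViPSC arrays. Their part in the Fbxo15 values was not tested.

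Tcl1 differed most among the pluripotent groups. It was at 9.48, 9.54 and 9.62 in ViPSC, at 9.28, 9.50 and 9.27 in TiPSC and at 9.67, 10.87 and 10.78 in ESC, against 3.68 in VM and 3.46 in TTF. Every ESC array lay above every induced array, ESC 1 only just and ESC 2 and ESC 3 clearly. The differences were −0.89 ± 0.27 for ViPSC minus ESC (95% interval −1.50 to −0.29, 0.538-fold, adjusted p = 0.127) and −1.09 ± 0.27 for TiPSC minus ESC (−1.69 to −0.48, 0.471-fold, adjusted p = 0.106). Neither passed in limma. Without ESC 1 they were −1.28 (adjusted p = 0.000256) and −1.47 (adjusted p = 0.000109), in a fit where 11% of all genes passed for ViPSC minus TiPSC, 13.8% for ViPSC minus ESC and 16.7% for TiPSC minus ESC. Over all alternatives the adjusted p ranged from 0.000256 to 0.725 and from 0.000109 to 0.412. ESC 1 also had the highest mean of the 12 primed epiblast and early lineage markers, 6.19. That mean was 5.27 in ESC 2, 5.01 in ESC 3 and 5.50 to 5.73 on the induced arrays. Gata6 (7.01), Sox17 (5.21), Gata4 (4.92), Foxa2 (4.58), Eomes (8.38) and Pax6 (6.06) were highest on ESC 1 among the 9 pluripotent arrays. Fgf5 (6.43), Otx2 (8.68) and Pou3f1 (8.34) were not highest there, nor were Mixl1, Cdx2 and Sox1. The part of these markers in the Tcl1 values was not tested.

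Trim71, the mouse homologue of worm lin-41, was at 11.19, 11.17 and 11.29 in ViPSC, at 11.32, 11.38 and 11.29 in TiPSC and at 11.29, 11.21 and 10.88 in ESC, against 5.01 in VM and 3.55 in TTF. The groups overlapped, and ESC 3 was the lowest array. Its largest difference was 0.20 ± 0.11 for TiPSC minus ESC (95% interval −0.04 to 0.45, adjusted p = 0.368). Its second probe set was at 10.81 to 10.89 in ViPSC, at 10.78 to 10.86 in TiPSC and at 10.32 to 11 in ESC, against 3.29 in VM and 3.56 in TTF. ESC 3 was the lowest pluripotent array on both probe sets, and VM was above TTF on the first only.

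Upstream sequence was at hand for 4 of the 10 genes (Utf1, Tcl1, Trim71 and L1td1), from RefSeq on GRCm38.p6. The 250 bases before the start of Utf1 and of Tcl1 are printed because these genes had, on the probe sets kept, the smallest source gap and the widest range among pluripotent arrays. Capitals mark the GC box GGGCGG on either strand.
Utf1, chr7:139943606-139943855, plus strand: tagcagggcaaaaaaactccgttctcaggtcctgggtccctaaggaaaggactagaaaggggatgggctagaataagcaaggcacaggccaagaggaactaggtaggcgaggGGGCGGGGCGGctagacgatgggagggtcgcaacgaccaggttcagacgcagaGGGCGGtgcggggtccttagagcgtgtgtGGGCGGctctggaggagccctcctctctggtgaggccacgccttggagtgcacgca
Tcl1, chr12:105222738-105222987, minus strand: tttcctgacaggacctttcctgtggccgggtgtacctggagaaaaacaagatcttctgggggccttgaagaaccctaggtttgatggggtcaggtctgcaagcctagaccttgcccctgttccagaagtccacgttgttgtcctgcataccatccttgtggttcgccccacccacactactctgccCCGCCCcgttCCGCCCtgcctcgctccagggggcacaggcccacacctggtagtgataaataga
The Utf1 window held 4 GC boxes, of which the first pair overlaps by 1 base, the Tcl1 window 2, both on the opposite strand, the Trim71 window 1 and the L1td1 window 0. A GC box stood in 32.7% of all 32851 upstream windows of this length. The Oct factor octamer ATGCNAAT, the Sox motif CTTTGTT, the TATA motif TATAAA and the E box CACGTG, searched on both strands, were in none of the 4 windows and in 2.86%, 5.03%, 12.4% and 6.02% of all windows. The CpG count was 14 for Utf1, 7 for Tcl1, 17 for Trim71 and 11 for L1td1, against a median of 6 and an upper quartile of 16 over all windows. These letters describe the windows and do not show where a factor binds.

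Between the 3 pluripotent groups, 0 of the 9 genes passed the limma test (Benjamini-Hochberg adjusted p under 0.05 over 18193 genes) in any comparison. Of all genes 5.63% passed for ViPSC minus TiPSC (3.2% higher, 2.43% lower), 2.14% for ViPSC minus ESC (1.45% higher, 0.693% lower) and 0.632% for TiPSC minus ESC (0.291% higher, 0.341% lower). With arrays weighted by their scatter about their group means in these same data, 2, 2 and 3 of the 9 genes passed. In those fits 19.9%, 19% and 16% of all genes did. In fits of the 6 compared arrays alone 1, 0 and 0 passed, while 14.4%, 0.401% and 0.0055% of all genes did. At an unadjusted p under 0.05 the counts among the 9 genes were 1, 2 and 3. The share of all genes at that threshold is not given here. Counts at an unadjusted p, here and below, are therefore not read as results. Arrays did not overlap between the groups for 2 genes in ViPSC against TiPSC (Dppa2 and Fbxo15), where 33.5% of all genes did not overlap. They did not for 2 in ViPSC against ESC (Dppa3 and Tcl1), where 22.2% did not, and for 3 in TiPSC against ESC (Dppa3, Fbxo15 and Tcl1), where 15.8% did not. The median difference of the 9 genes was 0.10, 0.04 and −0.04 log2 units in the 3 comparisons, where that of all genes was −0.035, −0.003 and 0.029. A p that misses the threshold does not show equal levels, and the 95% intervals reached 1.09 log2 units for Dppa2 between the induced groups and −1.69 for Tcl1 against ESC.

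**Figure D4:**
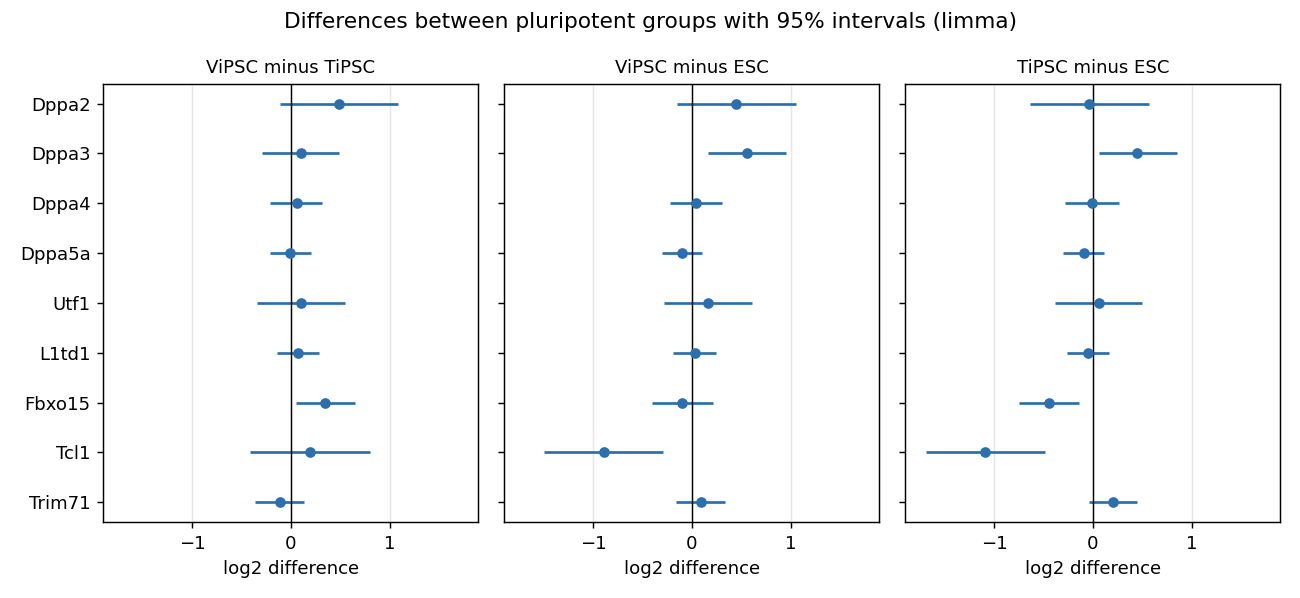
Log2 difference (x axis) of each of the 9 genes in the 3 comparisons of pluripotent groups, with points at the limma estimate and bars over its 95% interval (n = 3 arrays per group). The intervals of Tcl1 (−1.50 to −0.29 and −1.69 to −0.48) and Dppa3 (0.16 to 0.95 and 0.06 to 0.85) against ESC and of Fbxo15 between TiPSC and both other groups lie off 0, and no gene passed after adjustment.

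The embryonic cells were the most variable group for most of these genes. The SD over 3 arrays was largest in ESC for 7 of the 9 genes, as for 53.0% of all genes, and smallest in ViPSC for 7, as for 56.4% of all genes. On the second Dppa2 probe set the SD was largest in TiPSC (0.02 in ViPSC, 0.31 in TiPSC and 0.13 in ESC), so the place of Dppa2 among the 7 rests on the probe set. ViPSC had a median SD of 0.066 over the 9 genes, TiPSC had 0.128 and ESC had 0.276, against 0.079, 0.123 and 0.155 over all genes. Over the 9 pluripotent arrays the genes ranged over a median of 0.84 log2 units, against 0.52 for all genes. On the probe sets kept, the extremes came from different ESC arrays: ESC 1 was highest for Dppa4 and Utf1 and lowest for Dppa2, ESC 2 highest for Dppa2 and Tcl1 and lowest for Dppa3, and ESC 3 highest for Dppa5a and Fbxo15 and lowest for Dppa4, Utf1 and Trim71. The second Dppa2 probe set had its lowest value on TiPSC 1 (10.64), with ESC 1 at 11.41.

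The genes around this set were described with lists of regulators, relatives and partners. Over these lists 19 differences between pluripotent groups passed in limma. Only 2 of the 19, those of Khdc3 and Igf2bp3 in ViPSC minus TiPSC, also passed under all alternatives run on them, and leaving out ViPSC 2 or ViPSC 3 left 3 of the 19 past the threshold. Of 22 measured core and naive pluripotency regulators, 21 were at least 2 log2 units higher in all ViPSC arrays than in VM and 22 in all TiPSC arrays than in TTF. Of all genes 6.44% and 4.51% were. The list medians were 6.45 and 6.88. The exception among the regulators was Klf4, a reprogramming factor, at a mean of 11.53 in ViPSC against 10.24 in VM. None of the 22 passed in limma for ViPSC minus TiPSC, ViPSC minus ESC or TiPSC minus ESC, where 5.63%, 2.14% and 0.632% of all genes did. In that order 3, 6 and 4 of the 22 had an unadjusted p under 0.05, with no share of all genes to set beside them. The largest differences were 0.83 ± 0.32 for Prdm14, a repressor of primed genes, in ViPSC minus TiPSC (adjusted p = 0.177), −0.79 ± 0.19 for Tbx3 in ViPSC minus ESC (adjusted p = 0.0685) and −0.98 ± 0.32 for Prdm14 in TiPSC minus ESC (adjusted p = 0.171). Prdm14 was at 8.08 to 8.13 in ViPSC, 6.95 to 7.86 in TiPSC and 7.51 to 8.71 in ESC, with ESC 1 the lowest of its group.

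Among 8 measured relatives of Dppa5a and partners in the oocyte's maternal protein complex, 2 were at least 2 log2 units above VM in all ViPSC arrays, Ooep and Khdc3, which share a KH-type domain with it, and 1 was so in TiPSC against TTF, Ooep. Of all genes 6.44% and 4.51% were higher by as much in these comparisons. Ooep averaged 11.30 in ViPSC against 3.81 in VM, and 11.13 in TiPSC against 4.09 in TTF. Khdc3 was at 9.81, 9.46 and 9.69 on ViPSC arrays, at 6.37, 7.04 and 6.59 in TiPSC and at 8.16, 8.65 and 9.50 in ESC, against 4.93 in VM and 4.97 in TTF. It was 2.99 ± 0.30 higher in ViPSC than in TiPSC (adjusted p = 0.00176 in limma) and fell in TiPSC relative to ESC (−2.10 ± 0.30, adjusted p = 0.0245). Under the alternatives the adjusted p reached 0.016 for the first difference and 0.185 for the second. The Dppa5a difference between the induced groups was −0.01 ± 0.09. The other 7 relatives did not pass in any comparison.

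Dppa2 and Dppa4 are known to switch on genes of 2-cell-like cells, a rare state in embryonic stem cell cultures. Of 13 such genes listed 4 were measured, and none passed in limma, with 0 at an unadjusted p under 0.05. Zfp352 was at 3.91, 7.02 and 4.45 in ESC, and Tcstv1 at 3.43, 7.22 and 3.71, so ESC 2 stood apart for both. On ESC 2 Dppa2 was at 11.58, the highest of the 9 arrays, and Dppa4 at 11.26, within the range of the others. ViPSC 3, the next highest array for Dppa2 on the probe set kept (11.46), had Zfp352 at 3.96 and Tcstv1 at 3.36. On the second Dppa2 probe set ViPSC 3 was at 11.35, under the ESC arrays (11.41, 11.64 and 11.42). The 6 induced arrays were at 3.90 to 4.30 for Zfp352 and 3.24 to 3.38 for Tcstv1. These are values of single arrays, and the part of Dppa2 and Dppa4 in them was not tested.

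Of 10 DNA methylation genes linked to Dppa3, 6 exceeded VM by at least 2 log2 units on all ViPSC arrays and 5 exceeded TTF by as much on all TiPSC arrays. Of all genes 6.44% and 4.51% did so. None was lower by as much, though Tet3 averaged 3.96 in ViPSC against 5.55 in VM. Dnmt3l, the catalytically inactive methyltransferase cofactor, had a mean of 12.01 over the ViPSC arrays, where VM had 4.69, and of 12.14 over the TiPSC arrays, where TTF had 5.49. Dnmt3l also stands in the list of regulators, as does Lin28a of the let-7 pathway. Uhrf1, which recruits the maintenance methyltransferase, averaged 11.61 in ViPSC against 8.23 in VM, and 11.65 in TiPSC against 8.87 in TTF. Between pluripotent groups 1 of the 10 passed, the de novo methyltransferase gene Dnmt3a (0.91 ± 0.20 in ViPSC minus TiPSC, adjusted p = 0.0350), a difference that ranged over 0.03 to 1.16 across the alternatives. Of all genes 3.2% rose in that comparison.

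Although Tdh was not analysed, 14 of 18 genes of serine, glycine and folate metabolism around it were. Of the 14, 5 exceeded VM by at least 2 log2 units on all ViPSC arrays, as 6.44% of all genes did. In TiPSC against TTF 3 did, as 4.51% of all genes did. The list medians were 1.54 and 0.66. Gldc, the glycine decarboxylase, differed most, with a mean of 10.75 in ViPSC against 4.32 in VM, and 10.81 in TiPSC against 4.72 in TTF. Between the induced groups 0 of the 14 rose and 4 fell in ViPSC: Mthfd2 (−0.74 ± 0.18, adjusted p = 0.0467), Psat1 (−0.70 ± 0.11, adjusted p = 0.0119), Phgdh (−0.43 ± 0.08, adjusted p = 0.0153) and Mthfd1l (−0.42 ± 0.10, adjusted p = 0.0442). These encode mitochondrial folate enzymes and enzymes of serine synthesis. Of all genes 3.2% rose and 2.43% fell in that comparison. Under the alternatives the adjusted p reached 0.167 for Mthfd2, 0.066 for Psat1, 0.0771 for Phgdh and 0.168 for Mthfd1l. Psat1 and Phgdh were also 0.65 ± 0.11 (adjusted p = 0.0473) and 0.55 ± 0.08 (adjusted p = 0.0218) higher in TiPSC than in ESC, where 0.291% of all genes were higher. Under the alternatives those adjusted p reached 0.253 and 0.185. None of the 14 passed in limma for ViPSC minus ESC, where 4 had an unadjusted p under 0.05, with no share of all genes to set beside them.

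In the let-7 pathway, Lin28a, which blocks let-7 maturation, averaged 10.16 in ViPSC against 3.27 in VM, and 10.64 in TiPSC against 3.67 in TTF. The list as a whole did not rise with it. Of 13 measured genes of the pathway and of Trim71's reported targets, 2 exceeded VM by at least 2 log2 units on all ViPSC arrays. By as much 2 were lower. In TiPSC against TTF 2 were higher and 3 lower. The list medians were −0.23 and −0.01. Between the induced groups 1 of the 13 rose and 3 fell in ViPSC relative to TiPSC. Of all genes 3.2% rose and 2.43% fell in that comparison. The let-7 target Igf2bp3 was at 8.22 to 8.27 in ViPSC and at 9.27 to 9.42 in TiPSC (−1.09 ± 0.09, adjusted p = 0.000537) and was also lower in ViPSC than in ESC (−0.76 ± 0.09, adjusted p = 0.00764). Its relative Igf2bp1 was higher (0.48 ± 0.11, adjusted p = 0.0391). Cdkn1a, the cell cycle inhibitor whose mRNA Trim71 represses, was lower (−0.49 ± 0.08, adjusted p = 0.0121), as was Ago2, an Argonaute protein (−0.42 ± 0.09, adjusted p = 0.0368). Ago2 turned to 0.48 on its probe set of highest variance, and Cdkn1a ranged over −0.53 to −0.17 across the alternatives. Trim71 itself differed by −0.11 ± 0.11 in that comparison (95% interval −0.36 to 0.13).

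Neither the 8 measured relatives and kinases of the Tcl1 and Akt list nor the 5 genes listed for the ubiquitin ligase that holds Fbxo15 (its subunits Skp1, Cul1 and Rbx1, the exchange factor Cand1 and the cullin modifier Nedd8) passed in limma in any comparison, and none of either list was at least 2 log2 units higher in induced cells than in their source. At an unadjusted p under 0.05 the first list had 0, 1 and 0 genes and the second 3, 0 and 1 over the same 3 comparisons. Those counts too have no share of all genes beside them. Tcl1b1, a paralogue of Tcl1, was at 5.27 to 5.69 on the pluripotent arrays, against 4.94 in VM and 5.28 in TTF. Of 15 germline genes, which share expression in germ cells with the Dppa genes, 11 exceeded VM by at least 2 log2 units on all ViPSC arrays and 7 exceeded TTF by as much on all TiPSC arrays, where 6.44% and 4.51% of all genes did. Mov10l1, an RNA helicase of the piRNA pathway, was lower by as much in ViPSC (mean 5.42, against 9.02 in VM). Between pluripotent groups 3 rose and 0 fell in ViPSC relative to TiPSC: Tex19.1 (1.46 ± 0.23, adjusted p = 0.00983), Taf7l (1.23 ± 0.28, adjusted p = 0.0395) and Sycp1 (1.15 ± 0.23, adjusted p = 0.0230). Of all genes 3.2% rose and 2.43% fell in that comparison. Under the alternatives the adjusted p reached 0.0543 for Tex19.1, 0.136 for Taf7l and 0.1 for Sycp1. Sycp3 fell in ViPSC relative to ESC (−0.57 ± 0.10, adjusted p = 0.0273) and Taf7l in TiPSC relative to ESC (−1.75 ± 0.28, adjusted p = 0.0380). Of all genes 0.693% and 0.341% fell there. Those adjusted p reached 0.131 and 0.227. The median difference of the 15 genes was −0.52 in ViPSC minus ESC and −0.80 in TiPSC minus ESC.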

How the data were processed

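The deposited values are log2 expression values per probe set, made and normalized between arrays by the authors with RMA, per the submitters' processing notes. The RMA software, its version and the probe annotation used are not given in the sources used here. No detection calls, saturation flags or scan batches were used. Probe sets were named from the platform annotation. The 64 control probe sets, 932 with several symbols and 9160 with none were left out, and for each of 18193 genes its probe set of highest average level across all 11 arrays was kept. The pluripotent groups were compared in limma 3.58.1 (R 4.3.3): 1 mean per group, a spread shared by 9 arrays, two-sided moderated tests, Benjamini-Hochberg adjustment over all genes and a threshold of 0.05. The script was tested on simulated data. Errors are SE for differences and SD for group levels. Source cells, with 1 array each, got no test, only a threshold of 2 log2 units in all 3 induced arrays. The genes, lists, rules and tests were chosen with earlier results of these data known. Named were all member genes, per list up to 4 passing genes per comparison or, with none passing, up to 2 with the largest differences, and the 5 other genes with the widest gap. Alternatives covered probe set choice, array subsets, filtering, scaling, array weights, moderation and a block on replicate number. The replicate numbers shared by the groups do not pair the arrays in the labels. Some further related genes are given as levels and were chosen after their values were seen. Arrays limit the precision by their number.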

Additional observations from a re-analysis of the deposited data

How the results depend on the processing

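The member counts against the source cells were 8 or 9 under every alternative, with Utf1 lost in ViPSC against VM when its probe sets were averaged or 4 log2 units were required. Between pluripotent groups the count of member genes past the threshold stayed at 0 except as follows. With array weights it was 2 for ViPSC minus TiPSC (Dppa2 and Fbxo15), 2 for ViPSC minus ESC (Dppa3 and Tcl1) and 3 for TiPSC minus ESC (Dppa3, Fbxo15 and Tcl1), where 19.9%, 19% and 16% of all genes passed. With 1 array left out in turn the counts ranged over 0 to 1, 0 to 3 and 0 to 3 in the same order of comparisons, and each of the counts above 0 came without ESC 1, where Fbxo15, then Dppa3, Tcl1 and Utf1, then Fbxo15, Tcl1 and Utf1 passed and 11%, 13.8% and 16.7% of all genes did. ViPSC minus TiPSC gave 1 (Fbxo15) in the fit of the 6 compared arrays alone. Leaving out ESC 2 and ESC 3 together was tried only once the data had been looked at. The 1 ESC array left then adds nothing to the spread, so ViPSC minus TiPSC is the same fit and no separate check. The cause was not tested. With the replicate block 0 members passed in each comparison, and 623, 103 and 9 of all genes passed, against 1024, 390 and 115 without it. For each gene the group mean was subtracted, and the remaining deviations were correlated between arrays of different groups. Same-numbered arrays gave −0.125 to 0.118 over 9 pairs, with 1 pair over 0.1. Arrays with different numbers gave −0.14 to 0.169, so the numbers were not taken as pairs. Of 540 member differences under the alternatives, 16 moved past the threshold, 0 were reversed while past it, and 32 changed sign with neither value past it. Counts over all genes also moved by over 1.5 times in fits of the 6 compared arrays (2621, 73 and 1) and with the array weights above (3613, 3453 and 2913). They did so with 1 array left out (207 to 1994, 22 to 2519 and 12 to 3038, the highest without ESC 1). For ViPSC minus TiPSC the count moved by as much with every probe set tested (1635). For TiPSC minus ESC it did with probe sets averaged (65) or chosen by variance (76), and with ESC 2 and ESC 3 left out together. Of the 19 differences of related genes, tested under alternatives added later, 2 passed throughout and 1 was reversed, Ago2 at 0.48 with the probe set of highest variance. No probe set with several symbols named a member, so that alternative changed nothing and was not run. No result was marked for a closer look: no member differed past the threshold between the induced groups, and groups of 3 arrays are too small for an outlier test.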
